A study of Homo sapiens with 18 samples.

Results

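The response of TPC1 cells to transfection with a negative control siRNA was measured by RNA sequencing in 6 of the 18 libraries of the series: 3 non-transfected (NT) and 3 transfected with the negative control (NC). TPC1 is an established human papillary thyroid carcinoma cell line, wild type for Dicer1 per the labels. NC cells received 5 nM of a commercial negative control siRNA with the cationic lipid reagent Lipofectamine RNAiMAX, and total RNA was collected on day 4. The remaining libraries used here for comparison came from TPC1 cells given the Dicer1 siRNA at the same dose (siDicer, n = 3) and from NT and NC cells of D11 (n = 3 each), a single Dicer1 (+/-) clone made from TPC1 with CRISPR-Cas9. The 6 libraries were taken by their column names. The sample titles and descriptions named different groups for 12 of the 18 samples, 4 of them among these 6. Dicer1 mRNA was low in the libraries that the column names give as siDicer, which does not tell NT from NC. No group of cells given the lipid reagent without siRNA was used here, so the effect of the transfection reagent and that of the control siRNA cannot be told apart.

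An siRNA is a short double-stranded RNA of which 1 strand, the guide, is loaded into an Argonaute protein and directs it to a matching mRNA, which is then cut. A negative control siRNA is designed without a full match in the transcriptome and is used to separate what any transfected siRNA does from what the knockdown does. Any guide can also act as a miRNA does, by pairing a short stretch near its 5′ end, the seed, with the 3′ untranslated region (3′ UTR) of an mRNA, which lowers that mRNA moderately. Loaded siRNAs also occupy Argonaute proteins that endogenous miRNAs use, and long double-stranded RNA in the cytoplasm can be read by innate immune sensors.

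The depth was 19.8, 17.2 and 11.5 M reads in NT replicates 1 to 3 and 11.3, 16.0 and 18.6 M reads in NC replicates 1 to 3. Values are reads per gene scaled to 20 M reads per library, so that 1 read is worth between 1.01 and 1.77. NT replicate 2 stood apart from the other NT libraries: among 12527 genes with a mean of at least 100, 16.9% differed by 1.5-fold or more between it and NT replicate 1 and 12.4% between it and NT replicate 3, against 2.04% between NT replicates 1 and 3. Within NC, these shares were 1.25% to 9.3%. Of the defining markers of thyroid follicular cells, PAX8 was high (7443 to 14886) and FOXE1 and TG were measured at 86 to 214 and 32 to 124, while TSHR and NKX2-1 were at 0 in all 6 libraries. KRT8 and KRT18, keratins of simple epithelia, were at 5715 to 10378 and 2908 to 5177, whereas EPCAM, CDH1 and KRT19 did not exceed 5. The summed level of 7 markers of other cell types was 1088 to 2090 in NT and 878 to 1696 in NC, most of it CD68, and PTPRC and CALCA did not exceed 3.

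DICER1, which cuts miRNA precursors into mature miRNAs, was measured at 1582, 1510 and 1397 in NT and at 2492, 1901 and 2366 in NC. Its levels in siDicer were 255, 395 and 246. Every NC library was above every NT library. The difference between NC and NT was 0.58 ± 0.12 (SE) on the log2 scale, with an adjusted p of 0.133 in limma without a block and of 0.00721 with the replicate number as a block. It lay just under the fold minimum of 1.5 and was therefore not called in either fit. AGO2, the Argonaute protein that cuts siRNA targets, showed 3392, 2613 and 3204 in NT and 4950, 3777 and 4687 in NC, a log2 difference of 0.54 with adjusted p of 0.209 and, with the block, 0.00306. TNRC6A, the scaffold that links Argonaute to deadenylation, went from 2160, 1846 and 2037 to 3262, 2365 and 3130 (log2 difference 0.52, adjusted p 0.218 and, with the block, 0.00659). Over the 20 genes of the miRNA machinery that were tested, none was called in either fit and the median log2 difference was 0.02, against 0.0014 over all 18008 genes tested.

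A gene was called where limma gave an adjusted p under 0.05 and a fold of at least 1.5 on log2(value + 1). Without a block, 14 genes were lower in NC and 6 were higher, which is 0.0777% and 0.0333% of the 18008 genes tested. Including the called genes, 2003 genes had an unadjusted p under 0.05. The count of calls rested on single libraries: leaving out NC replicate 1, NC replicate 3 or NT replicate 3 gave 0 in both directions, leaving out NT replicate 1 gave 6 lower and 2 higher, leaving out NC replicate 2 gave 6 lower and 4 higher, and leaving out NT replicate 2 gave 35 lower and 20 higher. A lower value in a bulk library can mean fewer cells that express a gene or less RNA per cell, which cannot be told apart here.

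The 14 genes that fell in NC were expressed at mean NT values of 323 to 18803 and fell by 1.66-fold to 3.15-fold. They included regulators of transcription and translation, genes of vesicles and lysosomes, and a chaperone. HDAC1, a histone deacetylase, was measured at 3143, 3213 and 3070 in NT and at 1524, 1521 and 1608 in NC, so that NC stood at 49.4% of NT (log2 difference -1.02 ± 0.08, adjusted p 0.00892, n = 3 each). EIF5A2, a translation factor, went from 2300, 2029 and 1948 to 850, 834 and 787 (-1.34 ± 0.10, adjusted p 0.00892). The spread within each group of these genes was a small part of the gap between the groups.

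LMLN, which encodes a leishmanolysin-like metallopeptidase, had 363, 433 and 384 in NT and 128, 138 and 121 in NC (-1.60 ± 0.14, adjusted p 0.00897). JDP2, a basic leucine zipper repressor that binds AP-1 and ATF sites, had 301, 335 and 334 in NT and 100, 78 and 135 in NC (-1.66 ± 0.21, adjusted p 0.0407). It showed the largest fall of the 14. HSPB1, the small heat shock protein HSP27, had 1896, 2462 and 2079 in NT and 830, 937 and 887 in NC (-1.27 ± 0.12, adjusted p 0.0126). BACE2, an aspartic protease, had 1277, 1347 and 1218 in NT and 566, 492 and 545 in NC (-1.26 ± 0.10, adjusted p 0.00892).

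Genes of endosomes and lysosomes formed part of the group. RAB7A, the small GTPase of late endosomes, had 6310, 6793 and 6430 in NT and 3418, 3409 and 3966 in NC (-0.86 ± 0.09, adjusted p 0.0224). ATP6V1D, a subunit of the proton pump that acidifies lysosomes, had 1515, 1402 and 1491 in NT and 793, 685 and 863 in NC (-0.92 ± 0.11, adjusted p 0.038). VAT1, a vesicle membrane protein, had 7954, 10384 and 8175 in NT and 3817, 3905 and 4843 in NC (-1.07 ± 0.14, adjusted p 0.0443). The wider list of 36 lysosome and autophagy genes did not follow them: its median log2 difference was 0.01, with 19 genes above 0 and 17 below.

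The other genes called lower were FAM49B (-1.15), INTS14, a subunit of the Integrator complex (-1.05), WDR18 (-0.91), YBX3, a cold shock domain RNA-binding protein (-0.84), and NUCKS1, a nuclear DNA-binding protein (-0.73). NUCKS1 had the smallest fold and the highest level, with 18742, 18417 and 19250 in NT and 11172, 11202 and 11562 in NC. In none of the 14 genes did the NC libraries overlap with the NT libraries, against 8.33% of all genes tested in which every NC library was below every NT library. The 14 genes were chosen by these same libraries, so this is a description without a test.

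The siDicer libraries had received a different siRNA with the same reagent at the same dose. In all 14 genes every siDicer library was above every NC library, which was so in 14.1% of all genes tested. The NC libraries were used to choose these genes, so no test was made. HDAC1 was at 3027, 3401 and 2980 in siDicer, 99.8% of the NT mean. FAM49B stood at 94.9% of the NT mean, LMLN at 95.0%, YBX3 at 107%, ATP6V1D at 102% and RAB7A at 114%. EIF5A2 and NUCKS1 kept lower levels in siDicer, at 59.5% and 76.0% of the NT mean. In 4 of the 14 genes every siDicer library was below every NT library, against 17.2% of all genes tested.

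**Figure D1:**
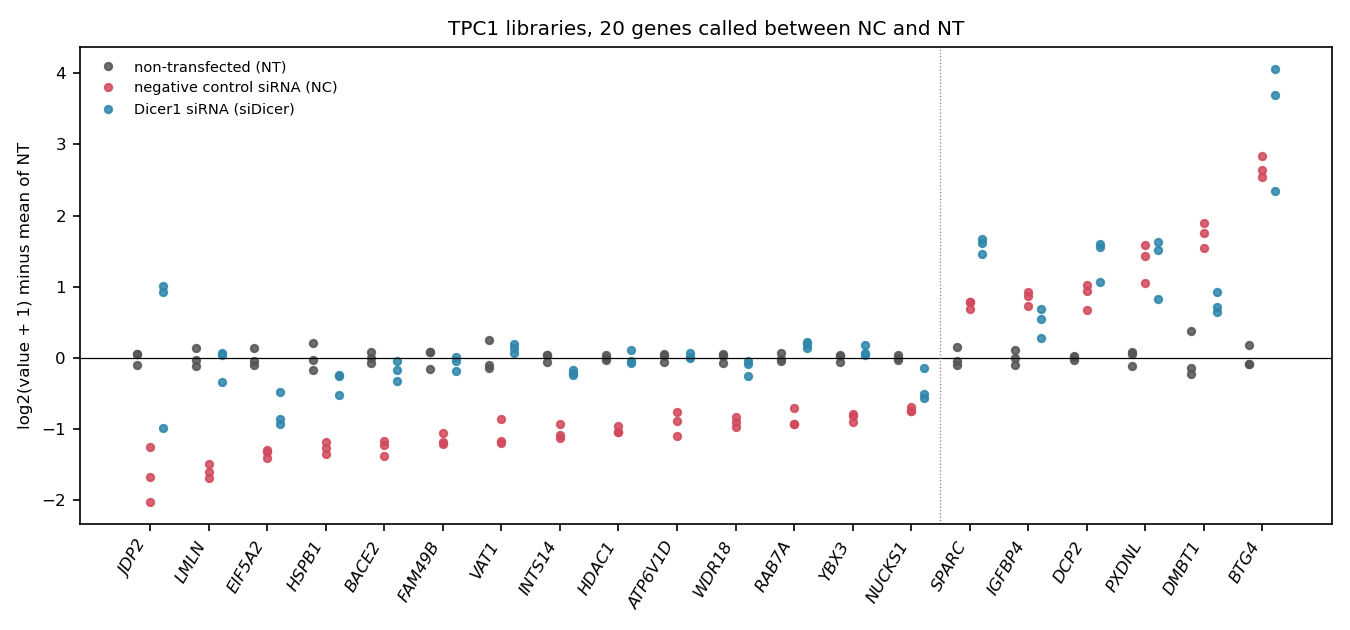
Level of the 20 called genes in the 9 TPC1 libraries, as log2(value + 1) minus the mean of the 3 NT libraries (vertical axis), with 1 point per library for NT, NC and siDicer. Left of the dotted line are the 14 genes called lower, in which every NC point lies below every NT and every siDicer point, and to the right the 6 genes called higher.

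The 3′ UTRs of the 14 genes called lower shared a short sequence. All 4096 sequences of 6 bases and all 16384 of 7 bases were searched on the sense strand of the 3′ UTR. The canonical transcript (GENCODE 44, GRCh38) was used, in the 13089 genes tested that have a 3′ UTR. Excess was ranked as holders minus the number expected from all genes, divided by about the square root of that expected number. The sequence most in excess in the 14 genes was taken, so its excess there is a description without a test. GCAACC was present in 14 of the 14 genes, against 23.1% of all genes, and the 7 bases GCAACCA that contain it were present in 12 of the 14, against 7.03% of all genes. The next 7-base sequences, AGCAACC and CAACCAT, overlap with it and were present in 8 genes each, and CAACCA, which overlaps with GCAACC, was present in all 14 genes and in 26.4% of all genes. LMLN and YBX3 held the 6 bases without the final A. Of the 6 genes called higher, 1 held GCAACC and 0 held GCAACCA. The shares of all genes were not matched for the length of the 3′ UTR. Its median was 3109 bases in genes with GCAACC and 960 in genes without it.

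For 13 of the 14 genes a match is given in the sense of the mRNA, 5′ to 3′, with up to 9 bases on each side, because these sites are what the genes called lower had in common beyond their fall. Capitals mark GCAACCA, or GCAACC where the A does not follow. All lie in the 3′ UTR and are given with GRCh38 coordinates.
HDAC1, chr1:32333297-32333320, plus strand: tacttttatGCAACCAtaagacaa
EIF5A2, chr3:170892815-170892838, minus strand: tggccacatGCAACCAtgtgatta
RAB7A, chr3:128814056-128814079, plus strand: ttaatatatGCAACCAattaaaat
ATP6V1D, chr14:67338438-67338461, minus strand: cataatttaGCAACCAtttatcat
INTS14, chr15:65578843-65578866, minus strand: ttttaaagaGCAACCAttaatgtg
BACE2, chr21:41275636-41275659, plus strand: tgacctcaaGCAACCAtgaactca
JDP2, chr14:75473002-75473025, plus strand: ttgatgaatGCAACCAtggcctga
VAT1, chr17:43014827-43014850, minus strand: tgggccattGCAACCAaaatgggg
WDR18, chr19:994387-994410, plus strand: tgcctcccaGCAACCAgggcccgc
NUCKS1, chr1:205714571-205714594, minus strand: gtttcagtcGCAACCAgttttccc
HSPB1, chr7:76304275-76304292, plus strand: aagttcaaaGCAACCAcc
YBX3, chr12:10699400-10699423, minus strand: ccagtttcaGCAACCgctaggttt
LMLN, chr3:198038858-198038881, plus strand: ccttcatcaGCAACCcaaccacct

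The sequence around the match differed between the genes. HSPB1 has a 3′ UTR of 119 bases and its match starts at base 111 after the stop codon, at the very end of the mRNA. LMLN held 13 copies of GCAACC, the most of any gene tested, 12 of them in a tandem array of similar units of which 1 is printed, while JDP2 and EIF5A2 held 3 copies each, BACE2 held 2 and each of the others 1. The sequence of the negative control siRNA was not used here, and whether it pairs with these sites was not tested.

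The same motif was then read in D11, whose libraries had no part in choosing it. Of the 36 genes called lower in D11 NC against D11 NT, 23 were not called in TPC1 and have a 3′ UTR. GCAACC was held by 15 of these 23 and GCAACCA by 10, and both were again the sequences of their length most in excess. In genes with a short 3′ UTR (up to 728 bases), 31.1% of the 61 genes with GCAACCA were at least 1.5-fold lower in D11 NC than in NT, against 2.69% of the 4304 genes without it, and in TPC1 these shares were 27.9% and 3.04%. In long 3′ UTRs (over 2157 bases) the shares were 2.47% of 658 genes and 0.821% of 3702 genes in D11, and 4.86% and 2.11% in TPC1. The TPC1 libraries were used to choose the motif, so the TPC1 shares are a description without a test. Among the 61 holders with a short 3′ UTR, 4 were called lower in TPC1. In TPC1 siDicer against NT, 8.15% of the holders over all lengths were at least 1.5-fold lower, against 8.97% of the other genes, but among short 3′ UTRs these shares were 19.7% and 10.2%. Most holders changed little: the median log2 difference in TPC1 was -0.04 over the 920 genes with GCAACCA and 0.01 over the others, and in D11 it was 0.02 and 0.01.

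**Figure D2:**
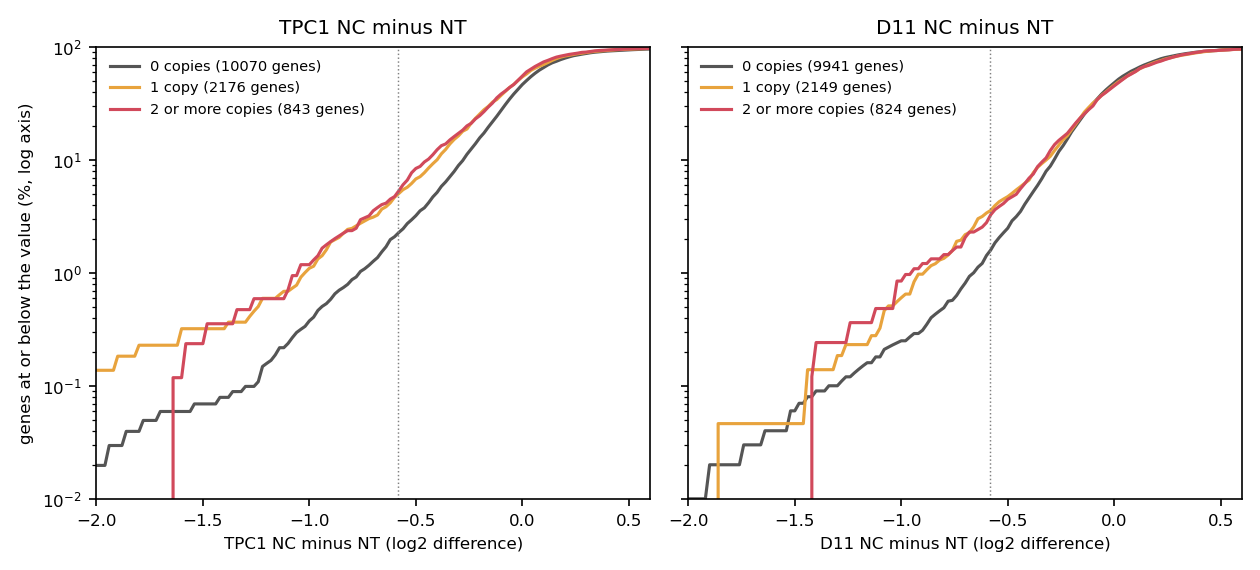
Share of genes (vertical axis, percent, log scale) whose NC minus NT difference was at or below the value on the horizontal axis (log2), in TPC1 (left) and D11 (right), for genes with 0, 1 or 2 or more copies of the 6-base motif in the 3′ UTR. At the dotted line (a 1.5-fold fall) 2.24% of the genes without the motif and 4.83% of those with 1 copy were at or below it in TPC1. At a difference of 0 the shares were 46.5% and 54.4%, and at 0.5 they were 94.4% and 95.8%. The motif was chosen from genes called lower in TPC1, so the left panel is a description without a test.

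Of the 6 genes higher in NC, SPARC, a matrix glycoprotein, was the most abundant, with 11882, 13735 and 11480 in NT and 21307, 21148 and 19855 in NC (log2 difference 0.75 ± 0.10, adjusted p 0.0443). IGFBP4, a secreted binding protein of insulin-like growth factors, had 3977, 3693 and 3418 in NT and 6741, 6134 and 7002 in NC (0.84 ± 0.10, adjusted p 0.0241). Both encode secreted proteins. DCP2, the enzyme that removes the mRNA cap before decay, had 678, 656 and 674 in NT and 1361, 1070 and 1280 in NC (0.88 ± 0.11, adjusted p 0.0467), and was the only member called among 23 deadenylation and decapping enzymes, whose median was 0.01.

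PXDNL, a peroxidasin-like protein, had 345, 307 and 353 in NT and 1002, 692 and 905 in NC (1.35 ± 0.15, adjusted p 0.0241). DMBT1, a secreted scavenger receptor of epithelia, had 188, 124 and 131 in NT and 423, 544 and 493 in NC (1.73 ± 0.19, adjusted p 0.0224). BTG4, a gene of the BTG family of antiproliferative proteins, had 5, 4 and 4 in NT, which correspond to 4, 3 and 2 reads, and 32, 30 and 37 in NC, or 18, 24 and 34 reads. Its fitted difference of 2.67 on the log2 scale depended on the pseudocount and was 1.58 with a pseudocount of 10. The gene overlaps the host gene of miR-34b and miR-34c on the other strand, and whether the counting used strand is not given in the sources used here, so reads of the pair may not have been separated. The same holds for other named genes with an antisense partner, among them DICER1, JDP2 and LMLN. In siDicer, SPARC (39219, 34042 and 37544) and DCP2 (2034, 1401 and 1976) were above every NC library, while DMBT1 (226, 239 and 276) and IGFBP4 (5403, 4453 and 5920) lay between NT and NC.

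D11 offered the same contrast in separate libraries. All 14 genes called lower in TPC1 were lower in D11 too, none with overlap between D11 NC and D11 NT, and 12 of the 14 were called there, against 0.205% of the 17589 genes tested in both lines. The median log2 difference of these 14 genes was -1.06 in TPC1 and -1.04 in D11. HDAC1 went from 3343, 2919 and 3097 in D11 NT to 1774, 1412 and 1505 in D11 NC (-1.001 ± 0.12, adjusted p 0.018) and HSPB1 from 2583, 1968 and 2380 to 772, 848 and 913 (-1.45 ± 0.13, adjusted p 0.00786). The 2 that were not called in D11 were LMLN (-1.13, adjusted p 0.069) and NUCKS1 (-0.57, adjusted p 0.0888).

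All 6 genes called higher in TPC1 were also higher in D11, 5 of them without overlap, and 3 were called: SPARC, DCP2 and DMBT1. BTG4 was at 19, 10 and 13 in D11 NT and 33, 18 and 29 in D11 NC, where the groups overlapped. Across all genes, 36 were lower and 27 higher in D11 NC than in D11 NT, 0.2% and 0.15% of the 17992 tested. Leaving out D11 NC replicate 2 or D11 NT replicate 3 gave 0 calls in both directions, leaving out D11 NC replicate 1 gave 5 lower and 2 higher, leaving out D11 NC replicate 3 gave 3 lower and 0 higher, and leaving out D11 NT replicate 1 gave 55 lower and 46 higher. The test of the difference between the NC effects in the 2 lines, an interaction term in limma over 12 libraries, called 0 of 18814 genes in either direction (0% each), with 225 genes at an unadjusted p under 0.05 and 621 with the replicate block. This does not show that the effects were equal.

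**Figure D3:**
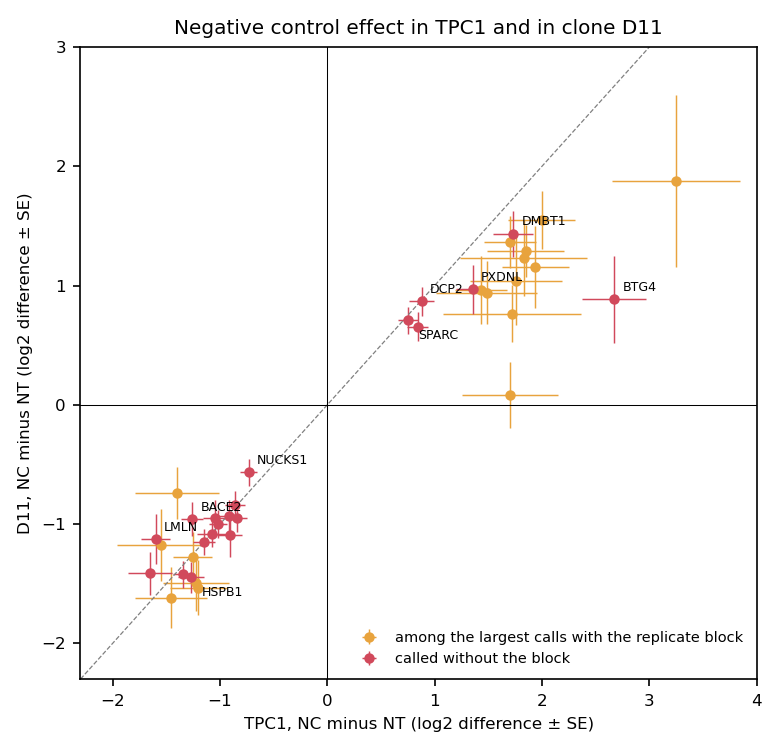
Log2 difference between NC and NT in TPC1 (horizontal axis) and in D11 (vertical axis) with standard errors, for the 20 genes called in TPC1 without the block (red) and for the largest calls with the replicate block (orange). All 20 red points lie in the quadrants of equal sign, near the dashed line of equality except BTG4.

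Libraries with the same replicate number varied together for numbers 1 and 2 and only weakly for number 3. The deviations of NT and NC from their group means correlated at r = 0.47, 0.464 and 0.126 for numbers 1 to 3. NC replicate 3 correlated more with NT replicate 1 (0.192) than with NT replicate 3. With the replicate number as a block, 300 genes were called higher and 265 lower, 1.67% and 1.47% of those tested, and 3835 reached an unadjusted p under 0.05. All 20 genes called without the block were among them, and all 565 moved the same way in each of the 3 pairs. The calls were made from these same pairs, so their equal sign is a description and not separate support. The count again depended on single pairs, with 502 higher and 331 lower when replicate 2 was left out, 167 higher and 153 lower when replicate 1 was, and 105 higher and 134 lower when replicate 3 was. In D11, 236 of the 248 genes called lower with the block only and tested there were also below 0 (95.2%, against 47.4% of all genes tested in both lines), and 285 of the 288 genes called higher with the block only were above 0 (99.0%, against 52.6%). Without overlap in the same direction were 45.2% of the lower and 56.9% of the higher ones, against 9.14% and 10.8% of all genes.

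Among the largest calls with the block, the higher genes had large differences between replicates. SAA1, an acute phase protein, had 31, 9 and 6 in NT and 151, 187 and 66 in NC (log2 difference 3.25, adjusted p 0.000682 with the block and 0.0968 without). SGK1, a kinase induced by serum and glucocorticoids, had 182, 69 and 110 in NT and 536, 210 and 487 in NC (1.76, adjusted p 0.000283 and 0.184). Both varied widely within each group, while every NC library was above every NT library. ELF3, an epithelial ETS factor, had 82, 223 and 75 in NT and 266, 998 and 236 in NC (1.83, adjusted p 0.000199 and 0.317), with replicate 2 highest in both groups.

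The other high calls were CES4A (2.00), CPA4, a carboxypeptidase (1.94), EFHB (1.85), DMBT1, MARCHF4, a membrane-bound ubiquitin ligase (1.72), KRTAP2-3, a keratin-associated protein (1.70), MAP3K7CL (1.70), TRPM2, a calcium-permeable channel (1.49), and SLC28A3, a nucleoside transporter (1.43). In D11, KRTAP2-3 differed by 0.08, while CES4A (1.55), MAP3K7CL (1.37) and EFHB (1.29) were called there without a block. KRTAP2-3 belongs to a family of near-identical genes, so its value is uncertain. The lower calls beyond those made without the block were IL13RA2, a decoy receptor of interleukin-13 (158, 123 and 126 in NT, 48, 84 and 23 in NC, -1.55), the lncRNA AL161431.1 (-1.45), CHAC1 (-1.40), TMEM117 (-1.25) and the replication-dependent histone genes HIST1H2BK (279, 163 and 208 against 123, 58 and 102, -1.22) and HIST1H4I (148, 90 and 93 against 59, 37 and 45, -1.20). Both histone genes were called lower in D11 as well (-1.50 and -1.53), as were AL161431.1 (-1.62) and TMEM117 (-1.27). In siDicer the histone genes stood at 267% and 247% of the NT mean. Histone genes have near-identical copies, so their values depend on how shared reads were counted. The libraries were made from poly-A RNA, so these values do not measure histone mRNA without a poly-A tail.

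The pathways of interest for a transfection response were read as 23 gene lists with 609 genes tested, of which 4 were called without the block (JDP2, HSPB1, DCP2 and SPARC) and 32 higher and 14 lower with it. With the block these are 5.25% and 2.3% of the list genes, against 1.67% and 1.47% of all genes tested. The lists were chosen with earlier results of these data known, so these shares are a description without a test. The shares of all genes are the background for the calls with the block in each list below. The lists were described by their counts and medians. In 5 of them (ATF4 stress response, miR-21 targets, p53 targets, let-7 targets, and keratins and epithelial junctions) the median levels of the 3 NC libraries did not overlap with those of the 3 NT libraries. In D11 the library medians of the ATF4, miR-21 and let-7 lists were also without overlap, while those of the p53 and keratin lists overlapped. For single genes, the groups were without overlap in 8.2% (NC above NT) and 8.33% (NC below NT) of all genes tested. How often the medians of other lists would be without overlap was not tested.

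**Figure D4:**
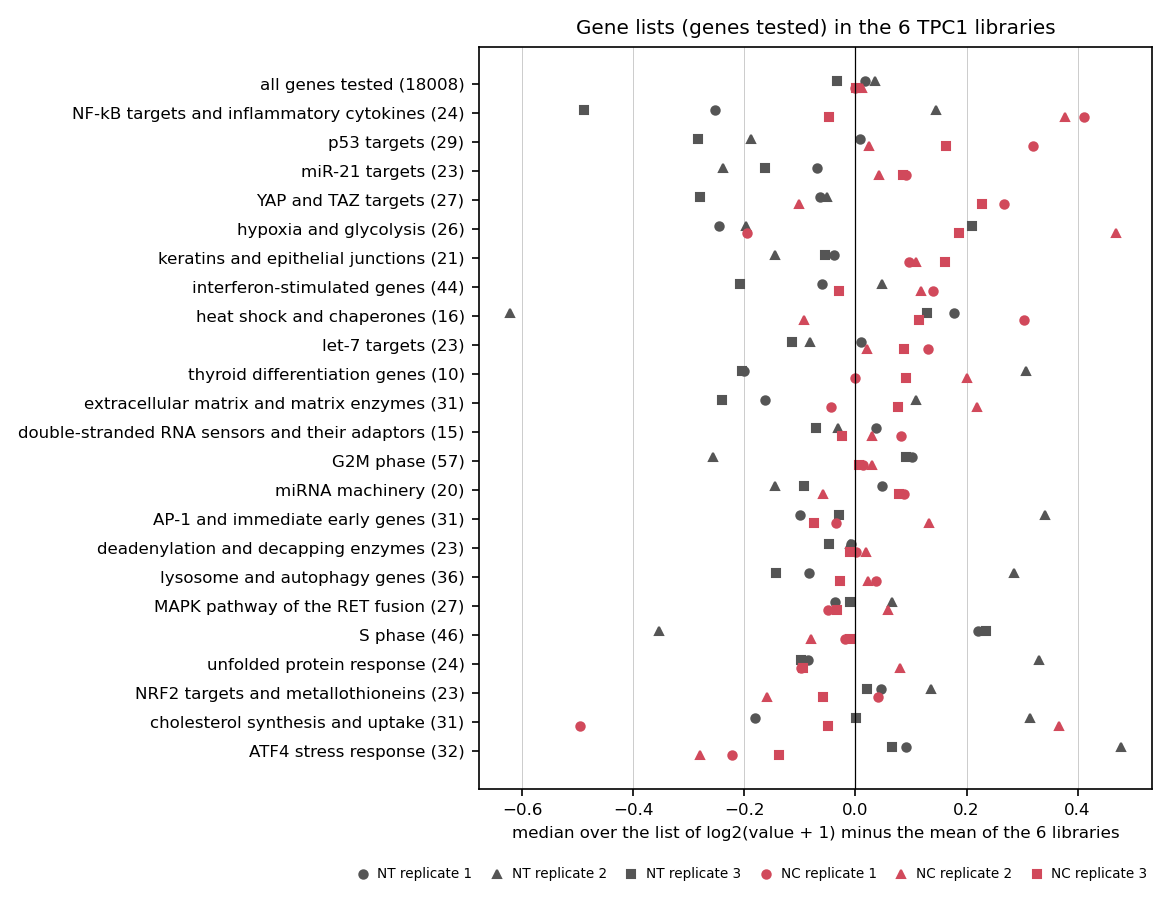
Median of each gene list in the 6 TPC1 libraries, as log2(value + 1) minus the mean of the 6 libraries per gene (horizontal axis), with the number of genes tested in brackets, NT in grey, NC in red and the replicate number as the marker shape. The 3 NC points of the ATF4 list lie below its 3 NT points, and NT replicate 2 lies apart from the other NT libraries in the S phase, heat shock and ATF4 lists.

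Genes of the ATF4 stress response, which supplies amino acids when translation is restrained, were the list with the lowest median in NC. Of 32 genes tested, 30 were below 0, the median log2 difference was -0.40, every NC library was below every NT library in 17 genes, and 8 were called lower with the block: JDP2, CHAC1, ASNS, SLC7A11, NUPR1, PHGDH, CEBPB and SHMT2. Over all genes tested, 8.33% were lower without overlap and 1.47% were called lower with the block. ASNS, asparagine synthetase, had 800, 1441 and 991 in NT and 470, 458 and 482 in NC (-1.15, adjusted p 0.0854 without and 0.00214 with the block), and its gene overlaps another annotated gene. PHGDH, the first enzyme of serine synthesis, had 2063, 2812 and 2335 in NT and 1318, 1557 and 1385 in NC (-0.75, adjusted p 0.0877 and 0.000985). SHMT2, which makes one-carbon units from serine, had 4664, 4327 and 4515 in NT and 2967, 3009 and 2990 in NC (-0.59, adjusted p 0.0512 and 0.00247), the tightest pair of groups on the list.

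The NT side of that list was uneven, with library medians of 0.09, 0.48 and 0.07 in NT replicates 1 to 3 and -0.22, -0.28 and -0.14 in NC. CHAC1, a glutathione-degrading enzyme, was at 866 in NT replicate 2 against 325 and 320 in the others and 212, 121 and 189 in NC. Without NT replicate 2 the list median was -0.24. In D11, 25 of the 32 genes were below 0 with a median of -0.25, and library medians of 0.21, 0.04 and 0.10 in NT and -0.09, -0.20 and -0.08 in NC. SLC7A11, the cystine transporter, had a D11 difference of 0.05.

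The list of NF-kB targets and cytokines had the highest median, 0.44 over 24 genes, with 19 above 0, 5 called higher and 1 lower with the block and none without. Its library medians overlapped, at -0.25, 0.15 and -0.49 in NT and 0.41, 0.38 and -0.05 in NC. CXCL1, a neutrophil-attracting chemokine, had 865, 903 and 559 in NT and 1534, 2222 and 1213 in NC (1.08, adjusted p 0.166 and, with the block, 0.000512). CXCL2 (1.27), CXCL8 (1.06), CCL2 (1.14) and IL6 (1.18) also rose with the block, while IL1B had 12, 74 and 11 in NT and 4, 14 and 2 in NC. CXCL8 and CCL2 overlapped between the groups and rose within each replicate number. In D11 these chemokines and IL6 differed by 0.20 to 0.55 and none was called.

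Of 44 interferon-stimulated genes, 33 were above 0 with a median of 0.17, and IFI44 alone was called, with the block (349, 277 and 309 in NT, 563, 545 and 511 in NC, 0.80, adjusted p 0.071 without and 0.00288 with it). The library medians overlapped, at -0.06, 0.05 and -0.21 in NT and 0.14, 0.12 and -0.03 in NC. In D11, 33 of the 44 were above 0 with a median of 0.21, and 1 was called higher without the block. The D11 library medians did not overlap, at -0.06, -0.11 and -0.16 in NT and 0.21, 0.15 and 0.01 in NC. Of 15 sensors of double-stranded RNA and their adaptors, 10 were above 0, the median was 0.07 and none was called. In D11, 13 of the 15 were above 0 with a median of 0.20 and none was called. Their D11 library medians did not overlap, at -0.06, -0.06 and -0.09 in NT and 0.23, 0.08 and -0.05 in NC.

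Targets of p53 had a median of 0.30, with 24 of 29 genes above 0 and 4 called higher with the block. CDKN1A, the p21 inhibitor of the cell cycle, had 4460, 3705 and 3214 in NT and 6048, 5414 and 5641 in NC (0.60, adjusted p 0.136 and 0.00423). BTG2 (1.12), SESN1 (0.81) and FAS (0.67) were the others. D11 gave 22 of 29 genes above 0 with a median of 0.15 and overlapping library medians, and CDKN1A differed by 0.15 there.

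In the S phase list, 28 of 46 genes were below 0 with a median of -0.06 and none was called. NT replicate 2 was the exception among the NT libraries, with a median of -0.35 against 0.22 and 0.24 in NT replicates 1 and 3 and -0.02, -0.08 and -0.01 in NC. Without it the median difference was -0.27, and in D11 it was -0.20 with 44 of 46 genes below 0. CDC45, a component of the replicative helicase, had 783, 556 and 771 in NT and 458, 555 and 574 in NC (-0.40, adjusted p 0.414). The G2M list had a median of 0.03 over 57 genes and none called. Its median turned to -0.07 without NT replicate 2, and in D11 it was -0.08 with 39 of 57 genes below 0. TTK, a kinase of the spindle checkpoint, had 1746, 1281 and 1638 in NT and 1109, 1158 and 1152 in NC (-0.44, adjusted p 0.255 and, with the block, 0.0363).

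Several genes of the matrix were called higher with the block. Of 31 matrix genes, 22 were above 0 and 6 were called higher, among them SPARC, COL5A1, TNC, THBS1 and TGFBI. TNC, tenascin C, had 1097, 2234 and 1368 in NT and 2728, 3806 and 3229 in NC (1.11, adjusted p 0.154 and 0.000533). TGFBI, a matrix protein induced by TGF-β, had 314, 591 and 529 in NT and 722, 1789 and 1344 in NC (1.38, adjusted p 0.199 and 0.000199). Their D11 differences were 1.61 and 1.30.

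Of 27 YAP and TAZ targets, genes read as a gauge of cell density and tension, 19 were above 0 with a median of 0.22 and 7 were called higher with the block: AMOTL2, F3, WWC1, LATS2, NUAK2, TGFB2 and THBS1. LATS2, a kinase that restrains YAP, had 1012, 990 and 886 in NT and 2017, 1348 and 1981 in NC (0.87, adjusted p 0.0976 and 0.0035). THBS1, thrombospondin, had 16008, 4526 and 9113 in NT and 32816, 10997 and 25562 in NC. Its groups overlapped, and replicate 2 was the lowest in both.

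Among the keratin and junction genes, KRT80 (1527, 1062 and 1404 in NT, 2730, 2084 and 3160 in NC, 0.99) and KRT81 (1.00) were called higher with the block. The list had 14 of 21 genes above 0 and a median of 0.20. Targets of 2 miRNAs known in thyroid cancer cells were read as well. Of 23 miR-21 targets, 16 were above 0 with a median of 0.28, and TPM1, RHOB, BTG2 and YOD1 were called higher with the block, TPM1, a tropomyosin, with 4522, 3073 and 3376 in NT and 8083, 4616 and 6884 in NC (0.82). Of 23 let-7 targets, 20 were above 0 with a median of 0.15, THBS1 was called higher and HMGA1 lower (10975, 16056 and 15178 in NT, 5503, 11660 and 7071 in NC, -0.85), while HMGA2, a widely used let-7 target, had 2738, 3466 and 2494 in NT and 4168, 3467 and 3540 in NC (0.37, adjusted p 0.383).

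Lipid and proteostasis lists showed single members rather than a shift. SREBF1, the transcription factor of lipid synthesis, had 4049, 6127 and 4761 in NT and 1504, 4039 and 2831 in NC (-0.93) and was the only one of 31 cholesterol genes called, with the block, while the list median of -0.13 turned to 0.02 without NT replicate 2. ATP6V0D2, a proton pump subunit, had 29, 89 and 48 in NT and 4, 14 and 9 in NC (-2.49) and was called lower with the block among the lysosome genes. DNAJB9 (-0.76) was the only call, lower with the block, among 24 genes of the unfolded protein response, and HSPB1 the only one among 16 heat shock genes, whose median of 0.17 turned to -0.09 without NT replicate 2.

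The remaining lists had few calls. Of 23 NRF2 targets, 17 were below 0 (median -0.10), with ABCC3 called higher (0.67) and SLC7A11 lower with the block. Of 26 hypoxia and glycolysis genes, 23 were above 0 (median 0.21), and P4HA2 (0.81) and LOX (1.06) were called higher with the block. Of 31 immediate early genes, DUSP1, a MAP kinase phosphatase, was called higher with the block (0.78; median 0.02), and FOSL2, an AP-1 subunit, had 5769, 5438 and 5085 in NT and 7782, 7652 and 8111 in NC (0.53, adjusted p 0.0722 and 0.00503). None was called in the MAPK list (27 genes, median -0.02) or among 10 thyroid differentiation genes (median 0.14). Every NC library was above every NT library in 8.2% of all genes tested.

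**Figure D5:**
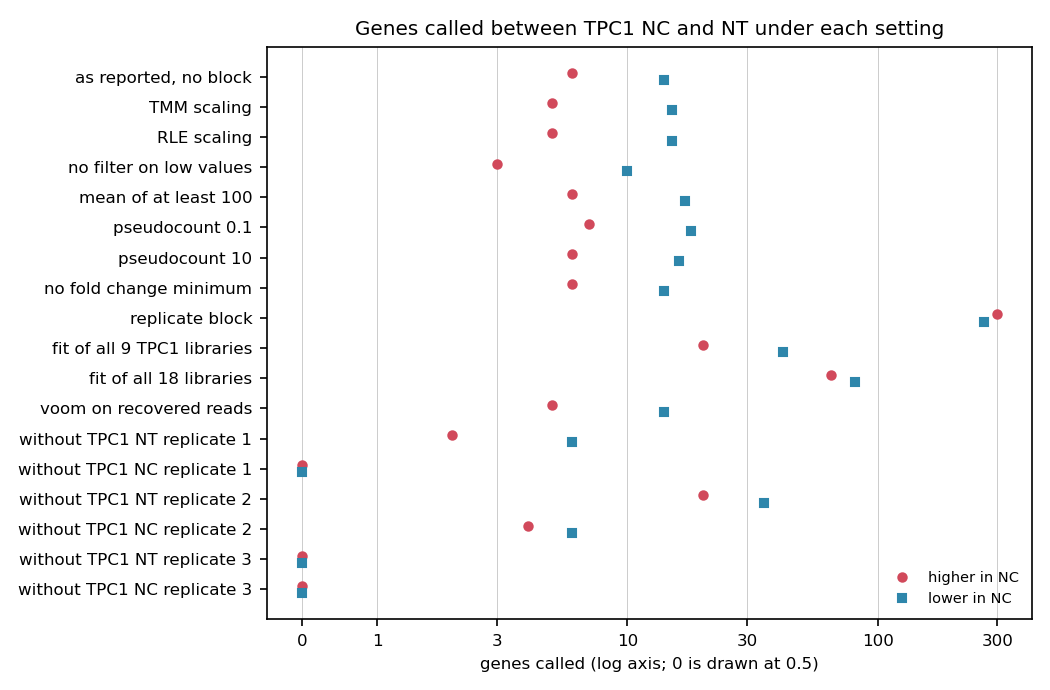
Number of genes called higher (circles) and lower (squares) in NC than in NT on a log axis, with 0 drawn at 0.5, for the fit as reported and for each alternative. The count is 6 and 14 as reported, 300 and 265 with the replicate block, and 0 and 0 without NC replicate 1, NT replicate 3 or NC replicate 3.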

How the data were processed

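Stranded poly-A libraries were sequenced as paired-end reads. Per the methods and labels, the authors aligned them to GRCh38 with STAR (2.5.3a), assigned reads to Ensembl release 90 genes with HTSeq (0.9.1) and scaled each library to 20 M reads. Whether HTSeq used strand is not given in the sources used here. The authors deposited 1 table of 58302 genes in 18 libraries, whose values are a normalised score: each gene's reads scaled to 20 M per library and rounded up to whole numbers. In these 6 libraries 100% of values up to 400 were whole multiples of 1 read (no tolerance beyond rounding up), and reads recovered from that step were used for depth and for voom only.

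Genes reaching 10 in 3 or more of the 6 libraries were tested with limma (3.58.1, R 4.3.3; trend, Benjamini-Hochberg) on log2(value + 1). Calls required both an adjusted p below 0.05 and a 1.5-fold change. Because the values are scores, no count model was fitted. The fit as reported held NT and NC without a block, and the replicate number was added as a block in the other. Same-numbered NT and NC libraries correlated at r = 0.47, 0.464 and 0.126, all over the minimum of 0.1 set for pairing, although replicate 3 of NC correlated more with NT replicate 1 (0.192) than with its own number. What these numbers stand for, and whether replicates were separate cultures, is not stated in the labels, so p-values measure the spread between these libraries. An exact permutation test of 3 against 3 cannot go below 0.1. The fits were tested on simulated data before use.

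Named genes were DICER1, every gene called without the block, of the calls with the block the 12 largest in each direction with a mean of at least 100 and no overlap, and up to 3 of each list by unadjusted p. Other calls are named as members of a list. Some genes that this rule names are not reported here. The comparison, lists and rules were chosen with earlier results of these data known. 3′ UTRs came from GENCODE 44 (GRCh38). MARCHF4 is listed under a symbol turned into a date and was named by its gene ID. Fold changes on log2(value + 1) understate those of low genes.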

Additional observations from a re-analysis of the deposited data

How the results depend on the processing

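The count of calls between TPC1 NC and NT depended most on the block and on single libraries. As reported, 6 genes were higher and 14 lower. The replicate block gave 300 and 265, a fit of all 9 TPC1 libraries 20 and 42, a fit of all 18 libraries 65 and 81, and no filter on low values 3 and 10. Leaving out 1 library gave 0 to 20 higher and 0 to 35 lower. TMM or RLE scaling gave 5 and 15, voom 5 and 14, a mean of at least 100 gave 6 and 17, and pseudocounts of 0.1 and 10 gave 7 and 18 and 6 and 16. With the block, 300 and 265 became 0 and 0 without the filter on low values (3896 genes at an unadjusted p under 0.05; the cause was not tested), 186 and 194 with a mean of at least 100, 590 and 615 without a fold minimum, and 105 to 502 and 134 to 331 without 1 pair. For D11, 27 and 36 became 195 and 120 with the replicate block, and 0 to 46 and 0 to 55 without 1 library. The difference between the lines called 0 genes under every setting run, replicate block included. Of the 20 genes called without the block, 20 were also called with it, 19 with TMM and 18 with voom, and 20 stayed called without NT replicate 2. Of 101 named genes, 0 reversed a called direction in any alternative. Under the alternatives, 242 list medians stayed within 1 SD, 11 moved by more, and 22 changed sign, in 10 lists. At 11.3 to 19.8 M reads, 3 reads were worth 3.03 to 5.32 in these libraries, so levels of a few units rest on single reads.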

Other observations

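Seed matches of endogenous miRNAs were read in the same 3′ UTRs, chosen after the values were seen. The mature sequences are from RefSeq (GRCh38.p14), 5′ to 3′, with the seed in capitals.
hsa-miR-29a-3p: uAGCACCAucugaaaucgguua
hsa-miR-16-5p: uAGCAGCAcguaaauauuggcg
hsa-let-7a-5p: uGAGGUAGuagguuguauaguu
Genes with the miR-29a match (TGGTGCT, 2142 genes, 16.4% of those with a 3′ UTR) had a median log2 difference of 0.05 between NC and NT, against 0.0008 in the others. Relative to the other genes, the median of these genes was -0.02, 0.03 and -0.01 in the 3 NT libraries. It was 0.05, 0.03 and 0.05 in the NC libraries, and the siDicer libraries had 0.13, 0.08 and 0.13, so NC replicate 2 overlapped with NT replicate 2 while every siDicer library was above every NC library. For the let-7a match (CTACCTC, 1454 genes) the values were 0.03, 0.02 and 0.03 in NC, and for the miR-16 match (TGCTGCT, 3260 genes) 0.04, 0.02 and 0.04. In D11 the genes with the miR-29a match had a median difference of 0.11, against -0.01 in the others, and their level relative to the others was -0.09, 0.07 and 0.02 in NT and 0.13, 0.12 and 0.09 in NC, without overlap. The matches of let-7a, miR-16, miR-21, miR-146b and miR-222 were read as well, and over all 6 miRNAs the median difference of the holders ranged from 0.02 to 0.05 in TPC1, while D11 gave 0.09 to 0.11. These values were not adjusted for the length of the 3′ UTR. Among genes without GCAACCA, the median difference in D11 was 0.12 with a long 3′ UTR and -0.08 with a short one. In TPC1 these medians were 0.03 and -0.01. Whether the seed matches add to the difference by length was not tested.

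The 3′ UTR motif of the genes called lower was also read in the 220 genes called lower with the block that have a 3′ UTR: 49.1% held GCAACC and 25.0% GCAACCA, against 23.1% and 7.03% of all genes and 17.9% and 6.49% of the 262 genes called higher. The 14 genes from which the motif was chosen are among the 220, and in the 206 others the shares were 45.6% and 20.9%. None of these shares was matched for the length of the 3′ UTR.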
